A study of Mus musculus with 11 samples.

Results

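The regions described here were the tallest RARα CUT&RUN peaks of Foxc1 mutant cortical progenitors that lay away from the ends of protein-coding genes. They were chosen by the max signal of their peaks in the lists of mutant replicates 2 and 3, on chromosomes 1 to 19 and X, as peaks of at least 4.4 in replicate 2 or 16 in replicate 3 that touched no 1 kb window on either side of either end of a protein-coding gene (GRCm38/mm10). Both limits correspond to 10 signal steps, a step being the smallest unit of which the max signals of a library were whole multiples. Overlapping peaks of the 2 lists were merged, which gave 1481 regions out of 805192 in all 6 lists together. Since height in these 2 libraries chose the regions, those heights are a description and carry no test. What can be compared is whether the other libraries held peaks at the same places.

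The samples were Prom1+ neural progenitors, isolated with magnetic beads from the cortex of mouse embryos at E14, from controls and Foxc1 mutants. An antibody to the Myc tag on RARα was used in 6 libraries, 3 control and 3 Foxc1 mutant. The other 5 of the 11 libraries, with an isotype antibody, were not analysed here, and the values below have no antibody background set against them. The sources used here do not give how the tagged receptor was expressed, the Foxc1 allele or the number of embryos pooled, and peak lists hold no RNA with which to check the cell type. The labels do not state whether replicates were separate embryos. The p-values therefore cover only the spread among these libraries, which may be technical.

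RARα is a nuclear receptor for retinoic acid. It pairs with RXR receptors and binds direct repeats of a short core motif, AGGTCA, at promoters and at enhancers that can lie far from any gene end, and it can occupy them with or without ligand. In the developing cortex the meninges are a source of retinoic acid, and Foxc1 is a transcription factor needed to form them. CUT&RUN uses an antibody to bring a nuclease to a protein on chromatin, so that short fragments around the protein are released and sequenced.

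Being far from annotated gene ends did not always mean being far from a transcription start, because many genes have further starts inside them and lncRNA genes were not part of the rule. Of 32619 RefSeq start windows (GRCm38.p6, 250 bases before to 50 after a start), 38 were touched by a member, belonging to 16 protein-coding and 19 lncRNA genes. The sequences of 6 of these windows are shown because they are the parts of the members whose bases were at hand. The first 3 hold the core motif, in capitals on whichever strand it was read, and the last 3 hold none.

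Magi1, chr6:93912914-93913213, minus strand: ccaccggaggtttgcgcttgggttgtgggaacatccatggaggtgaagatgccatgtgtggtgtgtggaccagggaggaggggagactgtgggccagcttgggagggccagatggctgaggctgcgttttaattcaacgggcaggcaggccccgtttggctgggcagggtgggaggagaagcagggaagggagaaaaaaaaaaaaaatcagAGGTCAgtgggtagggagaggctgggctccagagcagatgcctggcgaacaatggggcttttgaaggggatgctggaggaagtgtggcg

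Mettl9, chr7:121034195-121034494, plus strand: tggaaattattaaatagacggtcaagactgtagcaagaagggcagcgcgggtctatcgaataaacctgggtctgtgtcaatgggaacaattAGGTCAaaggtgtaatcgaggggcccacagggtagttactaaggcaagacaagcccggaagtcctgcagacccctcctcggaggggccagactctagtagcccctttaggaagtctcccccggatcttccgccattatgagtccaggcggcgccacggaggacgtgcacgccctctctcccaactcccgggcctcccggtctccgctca

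E130114P18Rik, chr4:97584542-97584841, minus strand: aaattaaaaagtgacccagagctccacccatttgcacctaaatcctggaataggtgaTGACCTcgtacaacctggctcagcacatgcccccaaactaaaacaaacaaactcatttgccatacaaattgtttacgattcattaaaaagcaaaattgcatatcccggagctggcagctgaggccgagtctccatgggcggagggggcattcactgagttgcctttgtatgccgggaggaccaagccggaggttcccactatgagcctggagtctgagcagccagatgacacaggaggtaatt

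Zkscan2, chr7:123500577-123500876, minus strand: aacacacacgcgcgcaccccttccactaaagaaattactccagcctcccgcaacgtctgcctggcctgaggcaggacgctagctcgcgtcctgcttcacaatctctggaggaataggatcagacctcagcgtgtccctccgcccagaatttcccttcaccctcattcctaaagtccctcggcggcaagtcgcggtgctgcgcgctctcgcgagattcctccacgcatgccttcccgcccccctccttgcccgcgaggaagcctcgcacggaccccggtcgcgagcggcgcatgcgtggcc

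Supv3l1, chr10:62449689-62449988, minus strand: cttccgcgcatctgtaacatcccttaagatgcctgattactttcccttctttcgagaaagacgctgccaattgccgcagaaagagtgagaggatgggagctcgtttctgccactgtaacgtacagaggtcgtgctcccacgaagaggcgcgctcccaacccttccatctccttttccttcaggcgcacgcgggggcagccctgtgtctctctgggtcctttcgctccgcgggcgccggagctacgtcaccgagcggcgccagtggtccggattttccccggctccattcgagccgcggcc

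C130071C03Rik, chr13:83732243-83732542, plus strand: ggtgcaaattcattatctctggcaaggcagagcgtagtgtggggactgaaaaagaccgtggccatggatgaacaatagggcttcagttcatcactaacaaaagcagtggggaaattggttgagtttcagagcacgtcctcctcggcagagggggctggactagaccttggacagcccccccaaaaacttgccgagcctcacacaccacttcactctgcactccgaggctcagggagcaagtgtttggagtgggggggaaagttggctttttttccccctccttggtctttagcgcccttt

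In the Magi1 window AGGTCA began 39 bases before the start, in the Mettl9 window 159 before it, and in the window of the lncRNA gene E130114P18Rik, inside Nfia, its reverse complement began 193 bases before the start. Magi1 encodes a scaffold protein of cell junctions and Nfia a transcription factor of glial development. AGGTCA was present on either strand in 6 of the 38 touched windows (15.8%) and in 16.2% of all windows. Direct repeats with spacers of 1, 2 or 5 bases (AGGTCANAGGTCA, AGGTCANNAGGTCA and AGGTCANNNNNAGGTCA, both strands) were in 0 of the 38, and in 0.0399%, 0.00920% and 0.00920% of all windows. A match is a run of letters and not a binding site, and the search covered only exact copies in these windows. The touched windows had a median GC content of 56.5% and a median of 13.5 CpG dinucleotides, against 53% and 7 in all windows. Among protein-coding starts alone the medians were 59% and 16 CpG in touched windows and 56.7% and 13 in all.

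The members that touched a start window numbered 33, and the start itself lay inside 26 of them. They came mostly from replicate 3: 30 of its 959 members (3.13%) touched a start window, against 0.552% of its lower peaks, those away from gene ends with fewer than 10 steps. In replicate 2 it was 5 of 601 (0.832%) against 0.462%. The 33 regions had a peak in control replicate 1 at 10, in control replicates 2 and 3 at 0, and in mutant replicate 1 at 7. At the 16 regions on protein-coding starts, mutant replicate 1 had 0 peaks and control replicate 1 had 3, where 10.8% and 17.9% of all members had one, so with 16 regions these counts are near those shares.

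The Magi1 region (chr6:93912588-93913658) was 11 steps high in mutant replicate 3, 3 in mutant replicate 2 and 13 in control replicate 1, with no peak in the other lists. The Zkscan2 region (chr7:123500365-123501527) had 13, 4 and 12 steps in the same 3 libraries, and the Myt1 region (chr2:181766593-181768275) had 10 steps in mutant replicate 3 and 11 in control replicate 1. Myt1 encodes a zinc finger transcription factor of neuronal differentiation. At these 3 starts a library of each genotype therefore had a peak. At Supv3l1, which encodes a mitochondrial RNA helicase, peaks of 9 and 12 steps were in mutant replicates 2 and 3 alone, and at Tnrc18 a peak of 16 steps was in mutant replicate 3 alone. The start of the lncRNA gene C130071C03Rik lay in a region of 7608 bp (chr13:83731205-83738812) with 5, 7 and 10 steps in mutant replicates 1, 2 and 3 and no control peak. The start of Malat1, an abundant nuclear lncRNA, had 4, 4 and 10 steps in the same order and likewise no control peak.

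Of 1005 RefSeq miRNA hairpins, 3 lay in member regions. The mature sequences are given with the seed, bases 2 to 8, in capitals, because each hairpin lay wholly inside a member, and the seeds shown differ from each other.

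mmu-miR-125b-5p: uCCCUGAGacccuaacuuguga

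mmu-miR-129-5p: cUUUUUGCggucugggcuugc

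mmu-miR-129-2-3p: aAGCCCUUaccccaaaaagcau

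Mir125b-1 (chr9:41581926-41582002), whose product is a miRNA of neural development, lay in a region of 9369 bp with 5 steps in mutant replicate 2 and 10 in mutant replicate 3. Mir129-2 (chr2:94241364-94241453), with Mir129b on the other strand, lay in a region with a peak of 10 steps in mutant replicate 3 alone. Neither region had a peak in mutant replicate 1 or in any control, as was the case at 73.1% of all member regions.

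The peak lists differed much in length before any choice of regions. Control replicates 1, 2 and 3 held 86444, 11709 and 30054 peaks and mutant replicates 1, 2 and 3 held 54091, 410453 and 513260. Control replicate 1 stood apart with a median width of 2327 bp, against 259 to 737 bp in the others, and a median height of 10 steps, against 2 to 4. The peaks of control replicates 2 and 3 covered 3.87 and 8.60 Mb, against 328 and 417 Mb in the 2 choosing lists, so the lack of a peak in these controls does not show that a member was free of the receptor. The number of reads behind each list is unknown.

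Most members stood just above the limit. Of the 1481 regions, 968 (65.4%) were 10 steps high, 306 were 11, 154 were 12 to 14, 19 were 15 to 19, 23 were 20 to 49 and 11 were 50 or more, up to 309. The lowest member had a max signal of 4.50 in replicate 2 and 16.3 in replicate 3, and the highest peaks left out had 4.05 and 14.7. Peaks away from gene ends with 8, 9, 10 and 11 steps numbered 3981, 1287, 372 and 120 in replicate 2 and 6381, 2107, 613 and 203 in replicate 3, with no gap at the limit. The members were 0.146% of the peaks of replicate 2 and 0.187% of those of replicate 3.

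**Figure D1:**
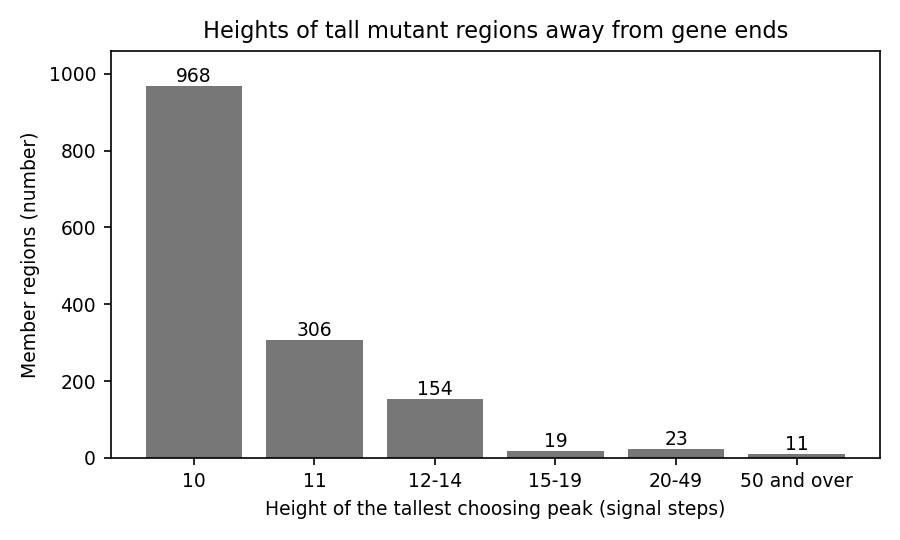
Number of member regions (vertical axis) by the height of their tallest choosing peak in signal steps (horizontal axis, in classes). The 968 regions of 10 steps made up 65.4% of the 1481, and 11 regions reached 50 steps or more.

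The lists of replicates 2 and 3 mostly chose different places. Only 62 regions (4.19%) held a member of each list, 530 came from replicate 2 alone and 889 from replicate 3 alone. Of the 601 members of replicate 2, 71 (11.8%) overlapped a member of replicate 3, and 70 of the 959 in the other direction (7.30%). At any height, 331 members of replicate 2 (55.1%) had a peak in replicate 3, where 34.8% of lower peaks had one, and 376 members of replicate 3 (39.2%) had a peak in replicate 2, against 28.3%. Counted at 10 steps or more, 11.98% of the members of replicate 2 were also tall in replicate 3, against 0.0924% of its lower peaks.

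Mutant replicate 1, which took no part in the choice, had a peak at 160 regions (10.8%), with a median of 5 steps. Among members of replicate 2 it had 111 (18.5%), against 3.53% of lower peaks, and among members of replicate 3 it had 113 (11.8%), against 3.56%. Members were thus more often called there than lower peaks of the same library, by 14.9 and 8.22 percentage points. Control replicate 1 had a peak at 265 regions (17.9%), with a median of 10 steps, the median of its whole list. Among members of replicate 2 it had 114 (18.97%), against 12.6%, and among members of replicate 3 it had 166 (17.3%), against 12.3%. Control replicates 2 and 3 had peaks at 9 and 18 regions, of at most 5 and 4 steps. For members of replicate 2 that was 0.666% and 1.5%, against 0.518% and 1.22% of lower peaks, and for members of replicate 3 it was 0.626% and 0.938%, against 0.517% and 1.25%.

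The percent of members with a peak was compared between genotypes in the 5 libraries that had not chosen them. All members were chosen in a mutant library, and members chosen in a control library were not compared in the same way. The comparison therefore cannot tell whether such members would favour control libraries. Each mutant group also held the other choosing library, whose list was far longer than that of mutant replicate 1 or any control. For members of replicate 2 it was 36.8 ± 25.9% (SD, n = 2) in mutant and 7.04 ± 10.3% (n = 3) in control libraries, a difference of 29.7 points (two-sided exact permutation p = 0.4). For members of replicate 3 it was 25.5 ± 19.4% and 6.29 ± 9.54%, a difference of 19.2 points (exact permutation p = 0.4). In both cases control replicate 1 was above mutant replicate 1, so the groups overlapped. After the percent of lower peaks was subtracted in each library, the excess was 17.6 ± 3.78 points in mutant and 2.27 ± 3.57 in control libraries for members of replicate 2, a difference of 15.3. For members of replicate 3 it was 9.56 ± 1.89 and 1.61 ± 2.98, a difference of 7.95. In excess the mutant and control libraries did not overlap, and the two-sided exact permutation p of 0.2 was the smallest that 10 assignments allow, so the design cannot reach 0.05. The separation depended on subtracting. As a ratio of members to lower peaks, control replicate 1 had 1.41 and mutant replicate 2 had 1.38 for members of replicate 3, so the groups overlapped. For members of replicate 2, control replicate 1 had 1.51 and mutant replicate 3 had 1.58. Mutant replicate 1 had the highest ratios, 5.23 for members of replicate 2 and 3.31 for those of replicate 3.

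The size of the difference in excess moved with the height limit and with where the members lay. With members of 10 to 14 steps alone it was 11.8 points for replicate 2 and 5.79 for replicate 3, and the groups did not overlap (exact permutation p = 0.2 for both). It was 4.12 and 2.87 points with regions of 8 steps or more (exact permutation p = 0.4 for both), 60.2 and 58.8 with 15 steps or more, and 8.74 and 4.0 without the loci of 5 or more members described below (exact permutation p = 0.2 and 0.4). With 50% of a member covered it was 10.1 and 5.06 (exact permutation p = 0.2 and 0.4), so for members of replicate 3 the groups then overlapped. The differences in percent rested on single libraries: for members of replicate 2 the value was 11.4 points without mutant replicate 3 and 48.0 without mutant replicate 1, and for members of replicate 3 it was 5.49 without mutant replicate 2 and 32.9 without mutant replicate 1. With control replicates 2 and 3 left out together, the 2 differences in percent were 17.8 and 8.19 and those in excess 11.2 and 4.52. With every list cut to the length of the shortest, the differences in percent were 10.98 and 6.13 points, and the groups did not overlap (exact permutation p = 0.2 for both).

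**Figure D2:**
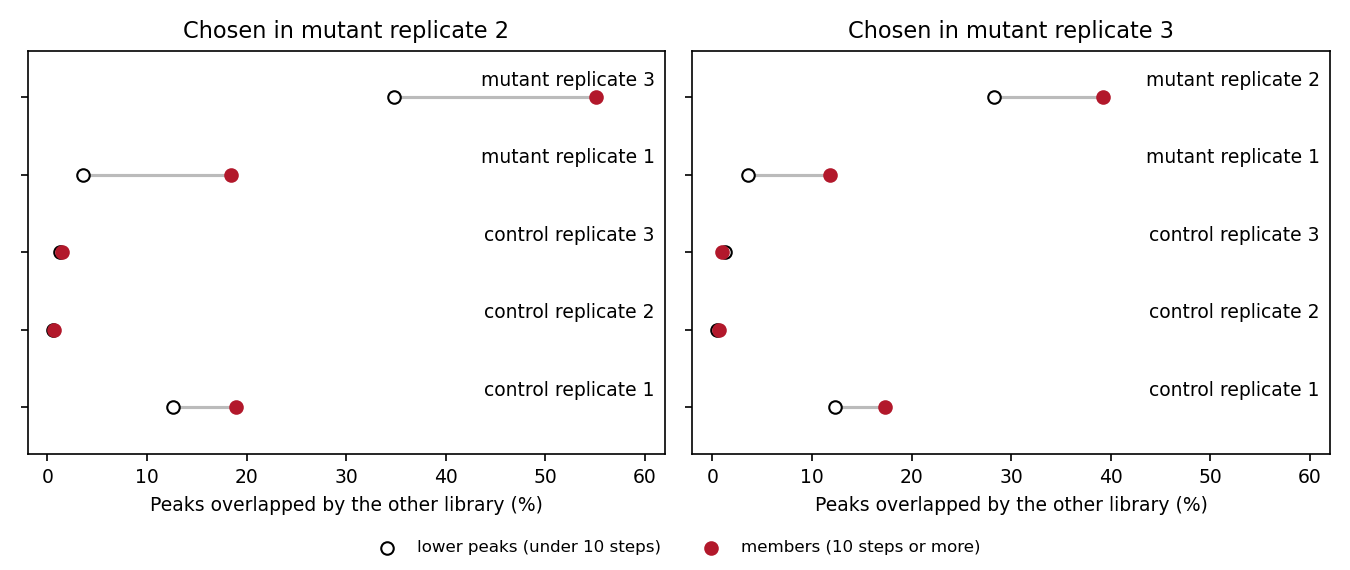
Percent of peaks overlapped by each other library (horizontal axis), for members (filled) and lower peaks (open) of mutant replicate 2 (left) and mutant replicate 3 (right). The gap for mutant replicate 1 on the left runs from 3.53% to 18.5%, while control replicates 2 and 3 stay under 2% for members and lower peaks alike.

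Agreement with mutant replicate 1 was higher in the taller classes. It had a peak at 7.02% of the regions of 10 steps, 8.50% of those of 11, 17.5% of those of 12 to 14, 52.6% of those of 15 to 19, 87.0% of those of 20 to 49 and 81.8% of those of 50 or more. Control replicate 1 had a peak at 18.1%, 17.3%, 14.3%, 15.8%, 43.5% and 18.2% in the same order. The 3 tallest classes hold only 19, 23 and 11 regions, and both choosing libraries had a peak at 38.4% of the lowest class and 100% of the tallest. A peak in mutant replicate 1 and in no control was found at 114 regions (7.70%), and 83 (5.6%) had a peak in every mutant list and in no control. At 1083 regions (73.1%) none of the other 4 lists had a peak, and 664 (44.8%) had a peak in the choosing library alone.

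**Figure D3:**
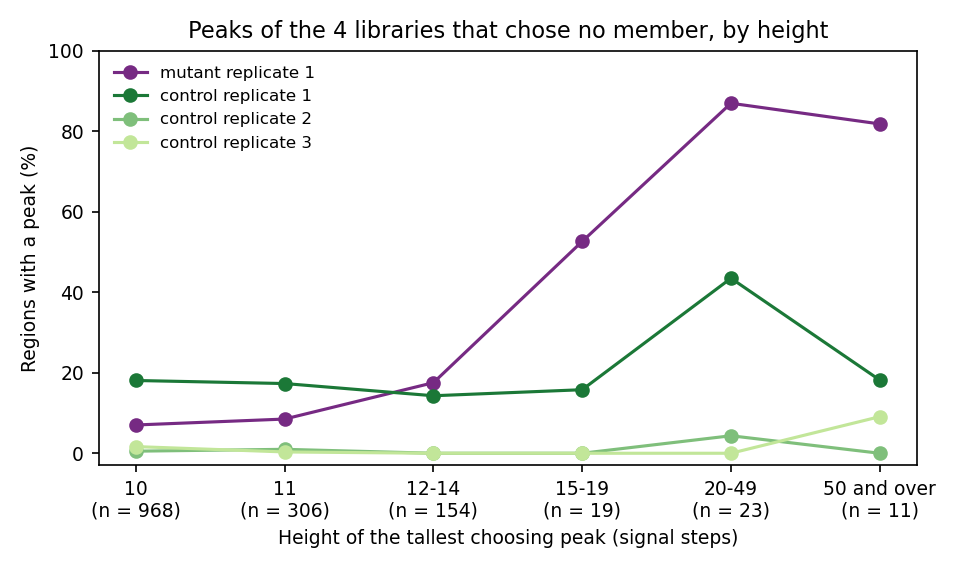
Percent of member regions with a peak in mutant replicate 1 and in the control libraries (vertical axis) by height class in signal steps (horizontal axis). Mutant replicate 1 goes from 7.02% at 10 steps to 87.0% at 20 to 49 steps, and control replicate 1 is between 14.3% and 43.5%.

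Members were wider than lower peaks: their median width was 882 bp against 734 bp in replicate 2 and 884 bp against 735 bp in replicate 3. Of 115 regions of 2000 bp or more, mutant replicate 1 had a peak at 57 (49.6%) and control replicate 1 at 21 (18.3%). Among lower peaks of that width, mutant replicate 1 had a peak at 9.31% in replicate 2 and 7.93% in replicate 3, and control replicate 1 at 20.1% and 18.1%. For control replicate 1 the share at wide members was thus near that of wide lower peaks. Of the 115, 42 lay in the 2 loci on chromosomes 4 and 13 that held the most members. At 500 to under 1000 bp there were 318 members of replicate 2. Control replicate 1 had a peak at 19.8% of these, against 12.2% of lower peaks of that width. Mutant replicate 1 had 7.55% against 3.30%. For 471 members of replicate 3 it was 15.5% against 11.8% in control replicate 1. Mutant replicates 1 and 2 had 5.94% against 3.29% and 29.9% against 26.8%. In this class the excess of control replicate 1 was above that of mutant replicate 1, so the groups overlapped. A wider region can be overlapped more easily. With the midpoint of the member's maximum in place of any shared base, the members of replicate 2 were overlapped in mutant replicate 1 at 10.98%, against 1.70% of lower peaks, and in control replicate 1 at 15.3%, against 9.67%. For members of replicate 3 the values were 7.51% against 1.69% and 14.2% against 9.38%. Control replicate 3 held none of these midpoints, against 0.332% for lower peaks of either list.

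The 34 regions of 20 steps or more were called in nearly every mutant list: 34 in replicate 3, 33 in replicate 2 and 29 in replicate 1. Control replicate 1 had a peak at 12 of them, and control replicates 2 and 3 at 1 each. The tallest region (chr2:98664746-98665252), 507 bp long and 1033074 bp from the nearest protein-coding gene, Lrrc4c, had 118, 309 and 267 steps in mutant replicates 1, 2 and 3 and no control peak. The region in Chl1, which encodes a neural cell adhesion molecule (chr6:103649061-103649453), had 70, 126 and 106 steps in the same order, and the region in Apool (chrX:112370084-112371744) had 26, 55 and 44. Neither had a control peak. Control lists therefore lacked a peak within these 3 regions, and mutant replicate 1, which took no part in the choice, had a tall one. The heights in mutant replicates 2 and 3 had chosen the regions. Of the 34 regions, 17 had a peak in mutant replicate 1 and in no control, and 11 had one in mutant replicate 1 and control replicate 1. Directly beside the tallest region, however, another member (chr2:98663484-98664349) had 38 steps in control replicate 1. There mutant replicates 1 and 3 had 9 and 12 steps, and mutant replicate 2 had no peak.

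Other tall regions lacked mutant replicate 1. In the region shared by Cmss1 and Filip1l (chr16:57391147-57391706) replicates 2 and 3 had 172 and 114 steps, and in the region in Aida (chr1:183299124-183299616) they had 147 and 112, with no peak in the other 4 lists. The replicate 3 peak at Aida touched a gene end window and so was not itself a member. These 2 regions are the tallest that mutant replicate 1 did not share.

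At some of these places a library outside the choice also had one of its own tall peaks. The step itself was 0.0500 signal units in control replicate 1, 0.450 in mutant replicate 2 and 1.63 in mutant replicate 3, so heights are not ordered between libraries. The region in Camk1d, a calcium-dependent kinase gene (chr2:5379003-5379384), had 246 steps in mutant replicate 1, 75 in replicate 2 and 88 in replicate 3, with no control peak. The region in Cdk8, a kinase gene of the Mediator complex (chr5:146260983-146261363), had 183, 63 and 53. The region in Jarid2, a gene for a cofactor of Polycomb repressive complexes (chr13:44869419-44870341), had 111 steps in control replicate 1 and 179, 36 and 27 in mutant replicates 1, 2 and 3. A region near Pak3 (chrX:143482927-143483388) had 219 steps in control replicate 1 and 28, 71 and 66 in the mutants. In control replicate 1, whose median was 10 steps, these peaks were tall within its own list.

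A further 3 regions inside or beside genes had peaks in control replicate 1 and in all mutant lists. In Gphn, which encodes the inhibitory synapse scaffold gephyrin (chr12:78350485-78351456), control replicate 1 had 84 steps and mutant replicates 1, 2 and 3 had 58, 34 and 33. In Fbxw4 (chr19:45649332-45650395) the values were 71, 11, 33 and 29. At Gm15564 (chr16:35981353-35981948) they were 62, 64, 24 and 28. No list of regions with high signal in any experiment was used, and whether these places are also tall without the Myc antibody was not tested.

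**Figure D4:**
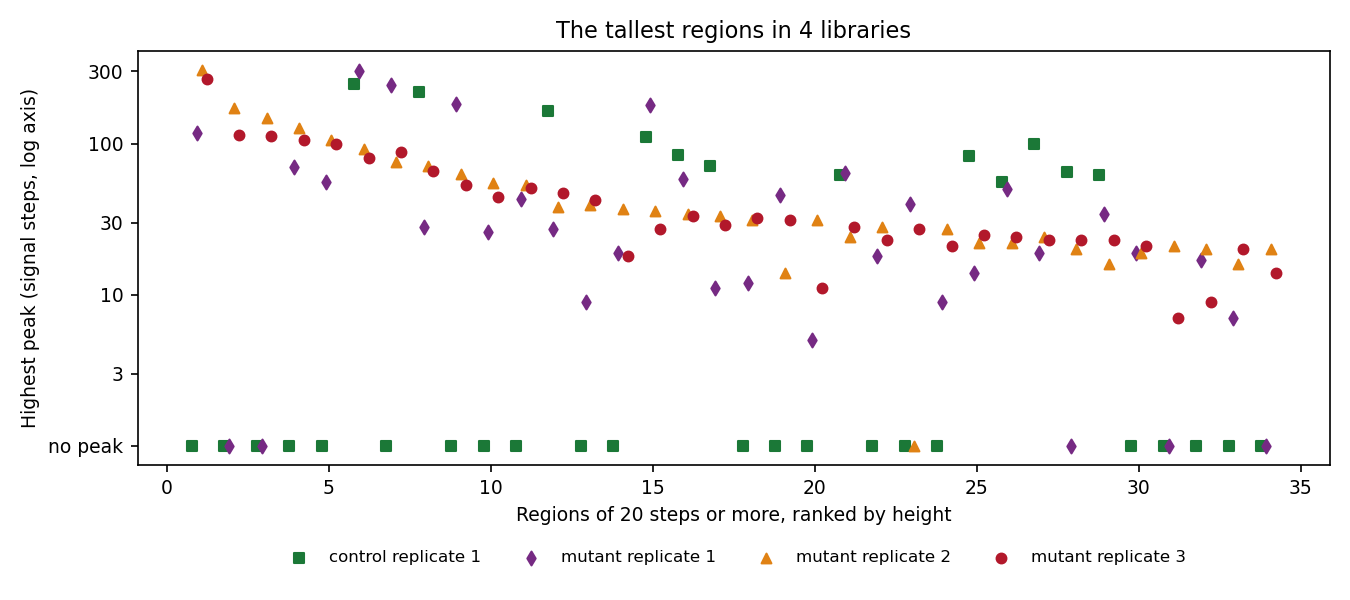
Height in signal steps (vertical axis, log scale) of the 34 regions of 20 steps or more, ranked by height (horizontal axis). Points are shown for control replicate 1 and mutant replicates 1, 2 and 3. Control replicates 2 and 3 are not drawn. A library without a peak in a region is placed at the level marked no peak. The region nearest Lrrc4c has 118, 309 and 267 steps in mutant replicates 1, 2 and 3 and no control peak, while the regions near Pak3 and in Jarid2 have 219 and 111 steps in control replicate 1.

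A group of members lay at the very start of the assembled sequence of a chromosome, where mouse chromosomes carry the centromere. Regions that began before 3.1 Mb numbered 13, of which 10 were 20 steps or more. Of the members of replicate 2, 12 (1.997%) began there, against 0.0424% of its lower peaks, and of replicate 3 12 (1.25%) against 0.0247%. On chromosome 9, 8 of them stood within chr9:3000006-3036433, with 16 to 106 steps in mutant replicate 2, 14 to 100 in replicate 3 and 14 to 56 in mutant replicate 1, which had a peak at 6. Control replicate 1 had peaks of 83, 100 and 164 steps at 3 of the 8, and control replicate 3 a peak of 3 steps at 1. The other 5 were on chromosomes 17, 18, 2 and 4.

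Members were unevenly spread and gathered in loci. With members under 500 kb apart taken as 1 locus there were 958 loci, 673 of them with a single member, while 23 loci with 5 or more held 178 members. The largest locus (chr4:145341865-147818964) held 37 members and 18 protein-coding genes, 15 of them Zfp genes such as Zfp980, Zfp981, Zfp982 and Zfp993. These encode KRAB-type zinc finger proteins, a family whose members are known as repressors of transposable elements. Here mutant replicate 2 had a peak at all 37 regions (7 to 31 steps), replicate 3 at 35 (5 to 17), mutant replicate 1 at 26 (3 to 12) and control replicate 1 at 6 (9 to 32), while control replicates 2 and 3 had none. The regions were wide, with a median of 2669 bp. Control replicates 1, 2 and 3 had a peak at 17.9%, 0.608% and 1.22% of all member regions. The control counts in this locus are near those shares. Mutant replicate 1 had a peak at 10.8% of all member regions. Most places in this locus thus had a peak in mutant replicate 1 as well as in the 2 choosing lists. The genes are near copies of each other, and the sources used here do not say how reads that match several copies were placed, so heights there are uncertain.

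The second locus (chr13:12802703-12939989) lay beside Prl2c3, a gene of the prolactin family, and contained no protein-coding gene. Its 19 members were called in mutant replicate 2 at 10 to 16 steps, in replicate 3 at 18 places (6 to 12 steps), in mutant replicate 1 at 15 (4 to 9) and in control replicate 1 at 2 (20 steps each). A locus on chromosome 1 (chr1:84757477-85620781) with Sp110 and Sp140, genes of nuclear proteins of the immune system, had 9 members. Control replicate 1 had peaks of 17 to 32 steps at 5 of these, and mutant replicate 1 had peaks at 3. The locus with Mroh2a, Hjurp, Trpm8 and Spp2 (chr1:88221189-88440295) had 6 members with a median width of 3898 bp, 5 with a peak in mutant replicate 1 and none with a control peak. With 6 members, the control count is near the shares over all regions given above.

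**Figure D5:**
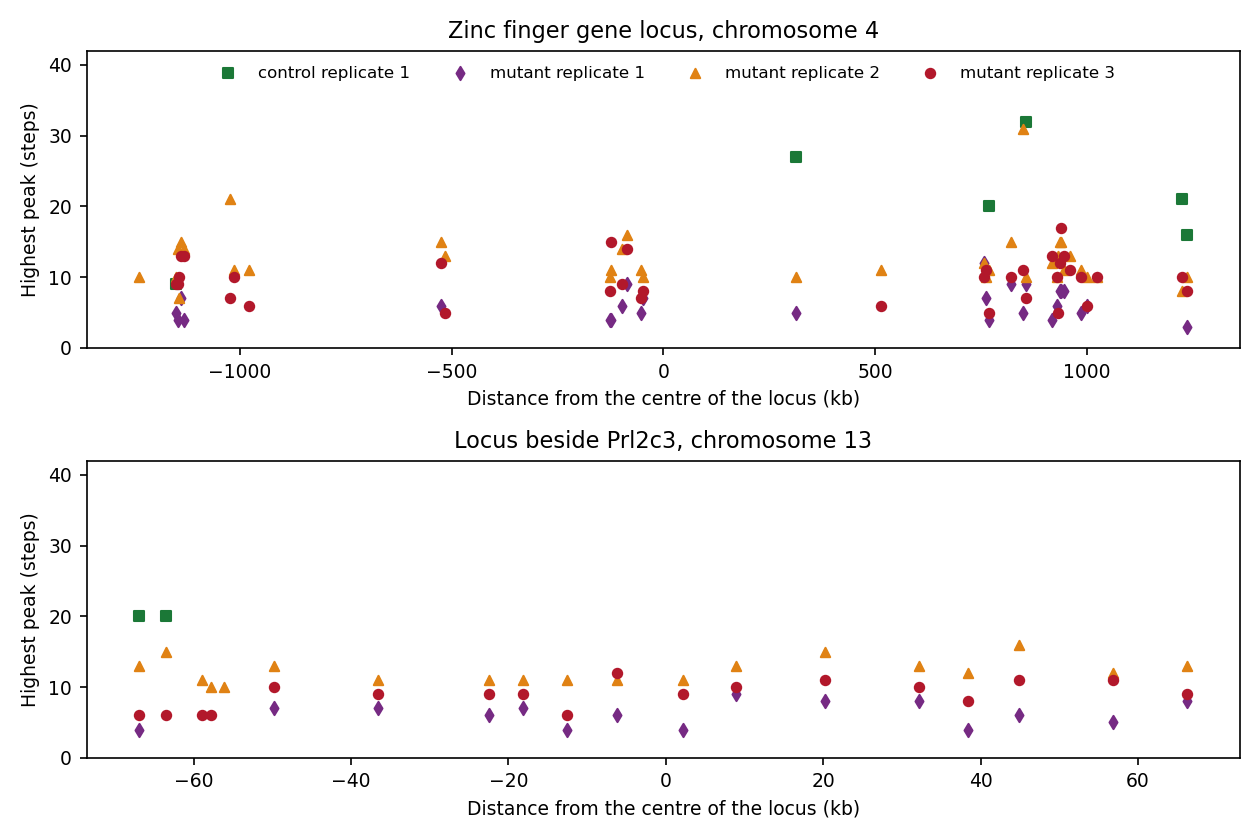
Highest peak in signal steps (vertical axis) of each member by its distance from the centre of the locus in kb (horizontal axis), for the loci on chromosome 4 (top) and beside Prl2c3 on chromosome 13 (bottom). Mutant replicate 1 points lie at 3 to 12 steps above and 4 to 9 steps below, and control replicate 1 has 6 and 2 points.

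A locus with Ralyl (chr3:12167753-13591844) had 7 members, with peaks of 10 steps at 2 in mutant replicate 2, 8 to 11 steps at 6 in replicate 3, 11 steps at 1 in control replicate 1 and none in mutant replicate 1. A locus with Pclo, a gene of the presynaptic active zone, and Speer4e (chr5:14656670-15515278) had 7, with peaks of 8 steps at 1 in mutant replicate 1 and of 13 and 16 steps at 2 in control replicate 1. Of these 7, 1 lay in Pclo, and 6 lay outside protein-coding genes, nearest to Gm17019, Gm21149 or Gm21190. Counts of this size are near the share of mutant replicate 1 over all regions, 10.8%.

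By position, 39.97% of the regions lay inside a protein-coding gene. For members of replicate 2 it was 34.9%, against 40.1% of its lower peaks, and for replicate 3 41.9% against 41.4%. The median distance to the nearest gene end was 77.8 kb against 62.7 kb in replicate 2 and 77.3 kb against 70.3 kb in replicate 3. Members were most frequent on chromosomes 3, 13 and 4, with 80.9, 80.1 and 79.6 per 100 Mb, and least on X, with 20.9. Lower peaks were also unevenly spread: per 1000 of them there were 2.64 member peaks on chromosome 13, 2.60 on 4, 2.12 on 16 and 2.09 on 3, against 1.19 on 6 and 1.08 on X.

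The 491 genes with a member inside were long, with a median length of 163 kb against 17.3 kb for all 21631 genes. That is 2.27% of the genes, and 61.5% of them exceeded 100 kb, against 11.2% of all. Most (410) had 1 member. Adgrb3, Cntnap2 and Ptprd, genes of neuronal adhesion proteins, had 4 each, beside 438, 1054 and 1235 lower peaks. Gm42346, in the zinc finger locus on chromosome 4, had 5 members in 39.0 kb with only 19 lower peaks. Long genes thus held members among many lower peaks, unlike Gm42346.

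Members near genes of the study's pathways were counted by list. Of 23 genes of retinoic acid synthesis, receptors, breakdown and response, 0 had a member inside and 0 within 50 kb, where 2.27% and 5.69% of all genes had one. Of 36 Notch pathway genes, 0 had one inside and 2 within 50 kb: Jag1, which encodes a Notch ligand, had a member at 42423 bp with 12 steps in mutant replicate 3, and Aph1a, a gene of the gamma-secretase complex, had one at 44104 bp with 10 steps. Of 19 Sox genes, 2 (10.5%) had a member inside. The region that touched the body of Sox11, a gene of newborn neurons (chr12:27339366-27340148), had 5 and 12 steps in mutant replicates 2 and 3, and the region in Sox5 had 10 in mutant replicate 3. With so few members per list, these shares are counts only.

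Of 22 radial glia genes 1 (4.55%) had a member inside, Cdh2, the N-cadherin gene, with 2 members, and Vim, the vimentin gene, had one at 36594 bp. Of 23 neurogenesis genes 2 (8.7%) had one inside: Map2, a gene of neuronal dendrites, and Myt1l, a neuronal transcription factor gene whose region (chr12:29529920-29531950) had 11 steps in control replicate 1 and 12 in mutant replicate 3. Among families of near copies, 14 of 397 Zfp genes (3.53%) had a member inside and 45 (11.3%) within 50 kb, and 7 of those 14 were in the locus on chromosome 4. Within 50 kb, where 5.69% of all genes had a member, the share was 4 of 25 prolactin family genes (16%), 5 of 80 ribosomal protein genes (6.25%), 52 of 1110 olfactory receptor genes (4.68%), 15 of 353 vomeronasal receptor genes (4.25%) and 37 of 1092 Gm genes (3.39%). The Zfp genes and the prolactin family, with its 4 genes, were above the share of all genes, and the other families named here were near or below it. Neighbouring genes can share a member, so these genes are not separate counts. The member at chr13:27694623-27695340 counted for both Prl7a2 and Prl7d1. Of 57 clustered protocadherin genes, 0 had a member within 50 kb.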

How the data were processed

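The analysis used CUT&RUN peak lists from 3 control and 3 Foxc1 mutant libraries made with the Myc antibody, with groups and replicate numbers from the titles. Digitonin was 0.05%, per the labels' protocols. Peaks came from SEACR on the build mm10, per the submitters' processing notes. The sources used here do not give its version and settings, the aligner, read filters or scaling. Each deposited list holds a total and a max signal per peak, in columns 4 and 5, the authors' values, called per library. Within a library, max signals below 100 steps were whole multiples of 1 unit, within 0.01. Steps rank peaks within a library and are not comparable as signal between libraries.

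Peaks on chromosomes 1 to 19 and X were kept, and 544 others left out. Gene ends, spans and start windows came from RefSeq tables of GRCm38.p6, the assembly behind mm10. The members, gene lists and tests were chosen with earlier results of these data known. Overlap counted from 1 bp. Libraries that did not choose the members were compared by two-sided exact permutation tests of the difference in means over 10 assignments. Lower peaks, away from gene ends and under 10 steps in the choosing library, served as background. Code was tested on simulated data. The tools were Python 3.11.15, numpy 2.4.6, pandas 2.3.3, scipy 1.17.1 and matplotlib 3.10.9.

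Named regions were the 10 tallest of each choosing library, those with a peak in the most other libraries, those tall in both lists, up to 3 per gene list, and genes of the loci with most members. The start windows, miRNAs, host genes with most members and the further regions of 20 steps or more were singled out after their values were seen. Alternatives were other height limits, gene end windows and overlap rules, and equal-length lists of 11709 peaks. Others were a replicate block, tested by sign flips, and leaving out each library. Chosen after seeing the data were members of 10 to 14 steps, no loci of 5 or more members, and control replicates 2 and 3 left out together. A sign-flip test of members against lower peaks was also chosen then. Some results are not reported here.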

Additional observations from a re-analysis of the deposited data

How the results depend on the processing

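The direction of all 4 genotype differences, and their side of 0.05, held in every alternative run, but no test in this design could pass 0.05. The number of regions moved with the limit: 15102 at 8 steps, 210 at 12 and 54 at 15, with 601 from mutant replicate 2 alone and 959 from mutant replicate 3 alone. The percent inside a gene was 49.3% when every annotated gene was counted and 32.1% at 15 steps. Leaving out each library in turn, the difference in percent ranged from 11.4 to 48.0 points for members of replicate 2 and from 5.49 to 32.9 for members of replicate 3, and that in excess from 12.7 to 18.01 and from 6.61 to 9.66. The replicate numbers were not shown to pair the libraries: deviations of same-numbered libraries correlated at 0.0492, 0.00795 and 0.0199. With the replicate number as a block (2 pairs), the differences in percent were 26.5 and 16.5 (exact sign-flip p = 1 for both). Those in excess were 14.3 and 6.98 (exact sign-flip p = 0.5 for both, the smallest that 2 pairs allow). Over the 5 other libraries, members of replicate 2 exceeded lower peaks in 5 of 5, by 8.41 ± 8.97 points (two-sided exact sign-flip p = 0.0625, the smallest possible), and in 4 of 5 by midpoint (exact p = 0.188). Members of replicate 3 exceeded them in 4 of 5 (exact p = 0.188), and in 3 of 5 by midpoint (exact p = 0.25).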

Other observations

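Members also lay on genes of small and noncoding RNA. An lncRNA gene was touched by 139 regions (9.39%), a pseudogene by 21, a transcribed pseudogene by 8 and a tRNA gene by 5. Noncoding genes of any kind were touched by 12.5% of the members of replicate 2 and 11.9% of those of replicate 3, against 10.3% of lower peaks of each, and pseudogenes by 3.33% and 1.88%, against 1.32% and 1.12%. On chromosome 13, a tRNA region (chr13:23410606-23413016) had peaks of 10 steps in control replicate 1 and 10 and 9 in mutant replicates 2 and 3, and another (chr13:23445234-23447797) had 10, 5 and 12 in the same order. On chromosome 1 a tRNA region (chr1:74816535-74817599) had 11, 9 and 10. At these 3 tRNA regions a control and both choosing libraries had peaks. The other 2 (chr11:61407721-61408165 and chr13:23521778-23522721) had peaks of 11 and 12 steps in mutant replicate 3 alone. Mutant replicate 1 had none at any of the 5. Over all member regions control replicate 1 had a peak at 17.9% and mutant replicate 1 at 10.8%, so 5 regions are too few to set against these shares.

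Pseudogenes of Pisd, a gene of phospholipid synthesis in mitochondria, were among the tallest places. At Pisd-ps2 (chr17:3081492-3082545) mutant replicates 1, 2 and 3 had 19, 37 and 18 steps. At Pisd-ps1 one region (chr11:3126833-3128835) had 18, 28 and 23 and the other (chr11:3129012-3130200) had 12, 31 and 32. No control list had a peak at these 3 regions. Control replicates 1, 2 and 3 had one at 17.9%, 0.608% and 1.22% of all member regions, so 3 regions are too few to set against these shares. Another member of the locus on chromosome 11 (chr11:3100999-3102910) had 17 steps in control replicate 1. Pisd-ps2 is also at the start of its chromosome.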
